A study of Mus musculus with 4 samples.

Results

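The distal peaks found only in replicate 2 are sites called in the second of 2 chromatin immunoprecipitation sequencing (ChIP-seq) libraries for Flag-tagged Nynrin, far from the ends of protein-coding genes and with no counterpart in the first library. They were chosen from the peak lists themselves. A peak entered when it lay on chromosomes 1 to 19, when it shared 0 bp with every replicate 1 peak, and when its summit was more than 10000 bp from the closest end of any mm10 protein-coding gene. There were 6148 such peaks, which was 24.1% of the 25539 autosomal peaks of replicate 2. They made up 41.5% of the 14815 replicate 2 peaks without a replicate 1 partner (95% interval 40.7% to 42.3%) and 71.6% of the 8589 distal replicate 2 peaks (70.6% to 72.5%). The other 2441 distal peaks overlapped a replicate 1 peak by at least 1 bp and are called shared distal peaks below.

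The study used lineage-negative bone marrow cells, which are marrow cells depleted of mature blood cells and which include the stem and progenitor cells. The cells came from 8-week-old C57BL/6 mice of the genotype 3xFlag-Nynrin-Tg, and both Flag ChIP replicates and both input libraries carried this transgene. Neither the promoter of the transgene nor the number of animals behind a library was given in the sources used here, and whether the replicates are separate animals is not stated. The series holds 4 libraries, of which the 2 Flag ChIP peak lists were analysed. The inputs were not analysed here, and neither untagged cells nor a control antibody entered as a comparison. The peak lists hold 25807 peaks for replicate 2 and 12716 for replicate 1, with no read counts, so the depth of each library is unknown. They hold positions and no expression values, so the cell label was not checked against marker genes.

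Nynrin is named for its NYN domain, a fold related to ribonucleases, and for a domain related to retroviral integrases. The study set out to map its promoter binding sites. Distal sites in blood cells are of separate interest because enhancers, the sequences that raise transcription from a distance, often lie in introns or in the space between genes. Genes of blood stem cells and lineages, such as Runx1, Erg and Spi1, are known for many such elements spread over long stretches of sequence. The gene closest to an element is often but not always the gene it acts on, so gene names below say where a peak lies and nothing of what it regulates.

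Some of these peaks lay at annotated transcription start sites even though they were far from the outer bounds of any protein-coding gene. Such starts belong to long noncoding RNA genes or to shorter transcripts that begin inside a long gene. The following 4 windows are shown because each fell wholly inside a peak and because they differ in base composition. They were chosen after their values were seen. Each runs from 250 bases before to 50 bases after the start, read 5′ to 3′ on the strand of the gene, from RefSeq (GRCm38.p6, the assembly behind mm10). Capitals mark matches to the motifs spelled out further on.
2310015A10Rik: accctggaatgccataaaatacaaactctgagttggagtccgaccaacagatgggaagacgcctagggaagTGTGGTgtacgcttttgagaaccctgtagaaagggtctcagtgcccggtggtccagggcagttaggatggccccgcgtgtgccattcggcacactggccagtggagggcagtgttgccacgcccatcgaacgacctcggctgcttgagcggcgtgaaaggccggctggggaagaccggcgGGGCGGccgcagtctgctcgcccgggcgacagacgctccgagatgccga
Nedd9: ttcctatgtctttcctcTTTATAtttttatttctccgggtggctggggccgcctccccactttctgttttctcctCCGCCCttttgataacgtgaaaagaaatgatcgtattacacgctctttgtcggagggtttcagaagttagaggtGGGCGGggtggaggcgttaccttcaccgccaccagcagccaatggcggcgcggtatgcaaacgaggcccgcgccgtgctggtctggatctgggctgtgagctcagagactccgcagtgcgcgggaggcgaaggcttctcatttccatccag
Fyb: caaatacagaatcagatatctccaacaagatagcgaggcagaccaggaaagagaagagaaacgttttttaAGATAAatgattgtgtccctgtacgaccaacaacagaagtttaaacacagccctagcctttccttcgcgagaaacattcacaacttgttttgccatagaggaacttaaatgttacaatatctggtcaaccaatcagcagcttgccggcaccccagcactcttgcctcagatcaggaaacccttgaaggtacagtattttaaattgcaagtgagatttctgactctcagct
Hdac7: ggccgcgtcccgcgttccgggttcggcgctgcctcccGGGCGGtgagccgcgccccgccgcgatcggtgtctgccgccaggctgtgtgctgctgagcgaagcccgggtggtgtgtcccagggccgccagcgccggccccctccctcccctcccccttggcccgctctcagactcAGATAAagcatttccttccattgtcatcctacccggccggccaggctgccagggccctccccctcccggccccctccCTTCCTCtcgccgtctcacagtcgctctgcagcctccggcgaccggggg

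The first window, chr12:80132795-80133094 on the minus strand, is the start of the long noncoding RNA gene 2310015A10Rik. The peak over it had a fold enrichment of 8.50, and its summit lay 73 bp from the start. The second, chr13:41358952-41359251 on the minus strand, is a start inside Nedd9, which encodes a scaffold protein of adhesion signalling. Its peak had a fold enrichment of 7.17. The third, chr15:6579597-6579896 on the plus strand, is a start inside Fyb, an adaptor gene of T cell signalling, and its peak summit lay 2 bp from the start with a fold enrichment of 6.38. The fourth, chr15:97831446-97831745 on the minus strand, is a start inside Hdac7, a class II histone deacetylase gene, with a fold enrichment of 6.11. GC content was 62.3% in the 2310015A10Rik window, 55.7% in the Nedd9 window, 42% in the Fyb window and 73.7% in the Hdac7 window. The ratio of observed to expected CpG was 0.836, 0.904, 0.459 and 0.795 in the same order, so the Fyb window was the poorest of the 4 in both measures.

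Peak strength comes from the list that the rule used, so it is given as a description with no test. Fold enrichment, deposited by the authors, is the height at a peak's summit divided by the background the peak caller assumed there. Its median was 3.99 in the distal peaks found only in replicate 2 (quartiles 3.45 and 4.52, range 2.26 to 10.1) and 5.05 in the shared distal peaks (quartiles 4.25 and 6.12, highest 15.9). A fold enrichment of at least 5 was reached by 891 of the replicate 2 only distal peaks (14.5%) and by 1268 shared distal peaks (51.9%). The caller's −log10 q had a median of 4.06 in the 6148 replicate 2 only peaks and of 7.02 in the shared distal peaks. The replicate 2 only distal peaks were also narrower, with a median width of 409 bp (quartiles 313 and 574 bp) against 729 bp (quartiles 493 and 1064 bp) for shared distal peaks. Widths of 1000 bp or more were found in 3.89% of them and in 28.7% of shared distal peaks.

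**Figure D1:**
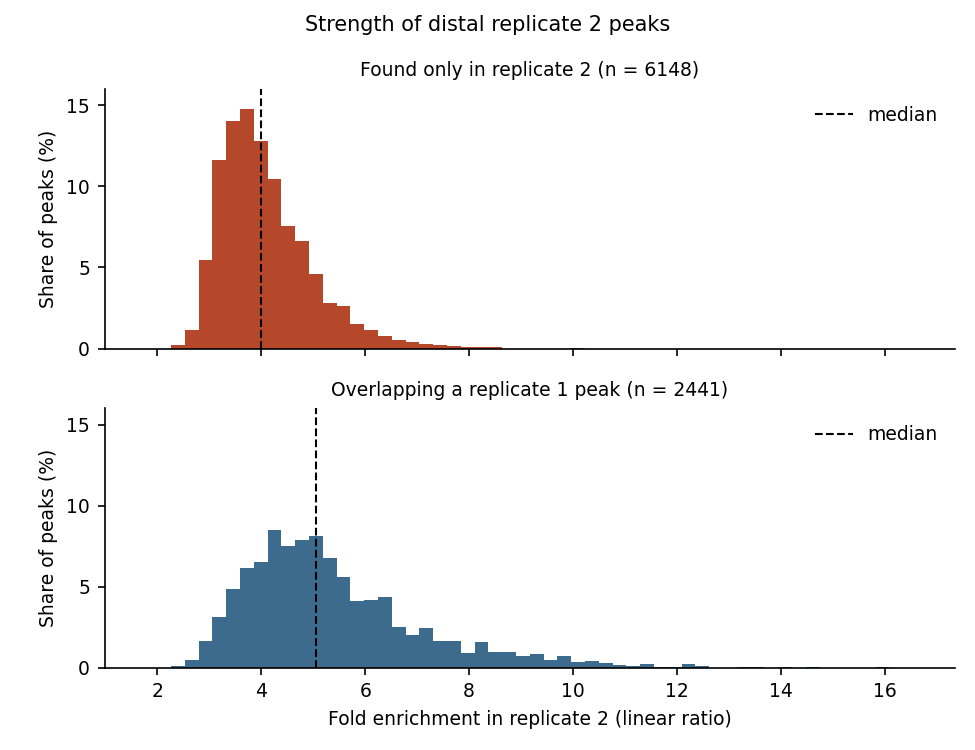
Histograms of fold enrichment in replicate 2 (x axis, linear ratio) for distal peaks found only in replicate 2 (upper panel, n = 6148) and for distal peaks overlapping a replicate 1 peak (lower panel, n = 2441), as a share of the peaks of each panel in percent; dashed lines are medians. The upper panel is centred near 3.99 and the lower near 5.05, with a tail that reaches 15.9.

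The share of distal replicate 2 peaks without a partner differed along the range of strength. Below a fold enrichment of 3 it was 88.4% (350 of 396 peaks), and from 3 to 4 it was 87.1%. It was 71.8% from 4 to 5, 53.6% from 5 to 6, 35.4% from 6 to 7 and 21.6% from 7 to 8. At 8 or more it was 5.58%, or 13 of 233 peaks. Values came in steps. Within a tolerance of 0.001, 64.1% of the replicate 2 only distal peaks (3939) had a fold enrichment that was a whole multiple of 0.266, with a median of 15 steps, and 602 of them shared the single value 3.72. Ranks by fold enrichment therefore held many ties.

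Most of the 10 strongest of these peaks lay inside genes. Among the 891 peaks with a fold enrichment of at least 5, 55.3% lay inside protein-coding genes, against 54.9% of all 6148. The highest fold enrichment, 10.1, was at chr17:46855824-46858777, a 2954 bp peak inside Bicral, which encodes a subunit of a chromatin remodelling complex, 33356 bp from a gene end. The next 5 had the same value of 8.50. They were the start of 2310015A10Rik shown above and peaks inside Gmeb1, a DNA-binding protein gene, Slc6a6, the taurine transporter gene, Vgll4, which encodes a cofactor of TEAD factors, and Pstpip1, a cytoskeletal adaptor gene of blood cells. At 8.24 were peaks inside Tns3, Tex14 and Cyrib, and a peak between genes 10818 bp from Il12a, which encodes a subunit of interleukin 12. The closest replicate 1 peak was 303 bp from the Tex14 peak and between 9774 and 73920 bp from the others of these 10. The Tex14 peak summit was 80 bp from an end of Rnu3b2, which the annotation used here classes as a small nuclear RNA gene.

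One peak stood apart in width and confidence. At chr17:39843219-39848740 a peak 5522 bp wide had the highest −log10 q of the set, 63.3, beside a fold enrichment of only 2.43. It lay inside Rn18s-rs5, a gene related to 18S ribosomal RNA, 102777 bp from the nearest protein-coding gene end. Ribosomal RNA genes exist in many near-identical copies, and how reads of such copies were placed was not given in the sources used here.

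Position relative to genes was not part of the rule beyond the distance to gene ends. Of the replicate 2 only distal peaks, 3376 summits (54.9%, 95% interval 53.7% to 56.2%) lay inside a protein-coding gene. A further 707 (11.5%) lay inside another annotated gene, such as a long noncoding RNA gene, and 2065 (33.6%, 32.4% to 34.8%) lay between genes. The shares in shared distal peaks were 50.7%, 14.4% and 34.9% for the same classes. Exons, introns and untranslated regions were not told apart. Of the 1923 Mb in which a summit can be distal, 36.5% is inside protein-coding genes, 9.15% inside other genes and 54.4% between genes. The peaks numbered 4.81 per Mb inside protein-coding genes, 4.02 per Mb inside other genes and 1.97 per Mb between genes. For shared distal peaks these densities were 1.76, 2.0 and 0.815 per Mb. Both sets were thus denser inside genes than between them, and the interval of the share inside protein-coding genes did not overlap that of shared distal peaks (48.7% to 52.7%). The intervals here are exact Clopper-Pearson intervals and treat peaks as independent, and a single library decided membership, so no test over replicates was possible.

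**Figure D2:**
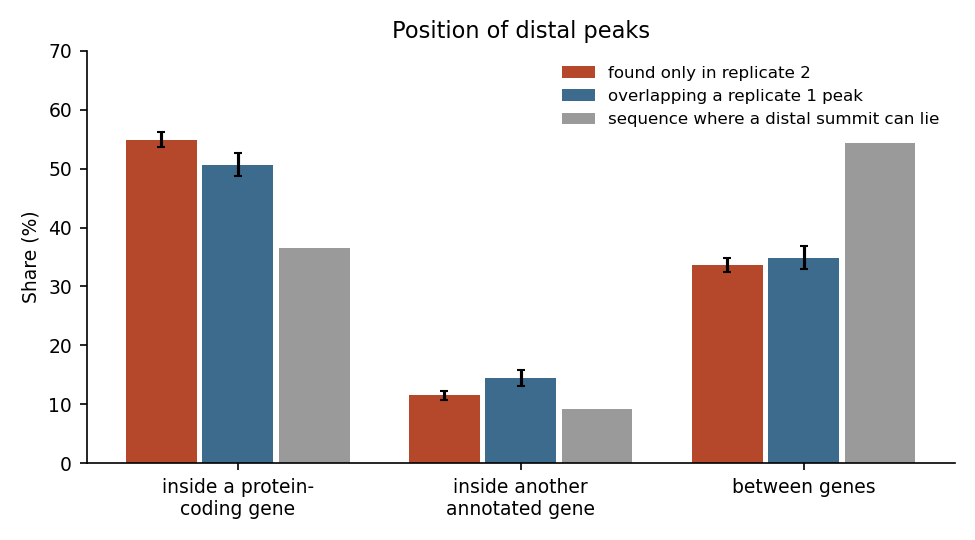
Share (y axis, percent) of distal peaks found only in replicate 2, of distal peaks overlapping a replicate 1 peak, and of the sequence where a distal summit can lie, inside protein-coding genes, inside other annotated genes and between genes; error bars are exact 95% binomial intervals. The share inside protein-coding genes is 54.9% for the replicate 2 only peaks, 50.7% for the shared distal peaks and 36.5% for the sequence.

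The median distance of a summit to the closest protein-coding gene end was 27671.5 bp in the replicate 2 only distal peaks (quartiles 16286 and 53540 bp) and 27699 bp in shared distal peaks. Distances of 10000 to 20000 bp held 34.5% of the replicate 2 only summits, and 20000 to 50000 bp held 38.4%. A further 16.9% lay at 50000 to 100000 bp and 7.51% at 100000 to 200000 bp, and 23 peaks lay more than 500000 bp away. The most distant was 1544704 bp from Zeb2. The 3 peaks just past the threshold lay 10001 bp from ends of Tnfaip8 and Tcf7l1 and 10002 bp from Pparg, with fold enrichments of 4.31, 3.99 and 3.71. Just under it lay peaks at 9997 bp from Igsf11, with a fold enrichment of 4.50, and at 10000 bp from Rab5c and Tmem144, with 2.92 and 3.45.

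In each host gene with a known strand, the outer 10000 bp at both ends were left out. The rest was divided into 4 equal parts, and peaks inside a single such gene were counted. Of 2711 replicate 2 only distal peaks, 29.0% lay in the part nearest the 5′ end, 24.8% in the next, and 23.1% in each of the remaining 2. Of 1012 shared distal peaks the shares were 31.5%, 26.3%, 21.7% and 20.5%. Both sets were spread along this inner stretch with the largest share toward the 5′ end.

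The 3376 peaks inside protein-coding genes fell in 1809 genes. That was 8.76% of the 20661 autosomal protein-coding genes and 18.9% of the 9574 that are longer than 20000 bp, the shortest a gene can be and still hold such a summit. Of the 1809 genes, 1088 held exactly 1 peak, 217 held at least 4 and 27 held at least 8. Shared distal peaks were present in 545 of them and absent from 1264. Of all 9574 genes longer than 20000 bp, 866 held a shared distal peak. The genes that held replicate 2 only distal peaks had a median length of 90767 bp, against 49292 bp for all genes longer than 20000 bp. Counted per Mb of eligible sequence, peaks were densest in genes of 20000 to 50000 bp, at 10.1 per Mb. They numbered 7.69 per Mb in genes of 50000 to 100000 bp, 6.89 in genes of 100000 to 200000 bp and 2.28 in longer genes.

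Genes with a peak at an end in both replicates were compared with the other genes, since peaks at gene ends lie outside the rule. A gene counted as such when each list held a summit no more than 1000 bp from one of its ends, as was found for 37.6% of genes longer than 20000 bp. In genes of 20000 to 50000 bp the replicate 2 only distal peaks numbered 11.3 per Mb in genes with such summits and 9.22 per Mb in genes without. The pair was 9.30 and 6.61 per Mb at 50000 to 100000 bp, 9.81 and 5.51 at 100000 to 200000 bp, and 5.70 and 1.67 in longer genes. The ratio of the 2 densities was thus highest in the longest genes. That class has no upper length bound, so gene length was not matched between the 2 groups within it. Shared distal peaks numbered 3.40 and 3.41 per Mb in the shortest of these classes and 2.39 and 0.561 per Mb in the longest. Viewed by gene, 35.2% of genes over 200000 bp that held a replicate 2 only distal peak had gene-end summits in both lists, against 11% of those that held none.

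**Figure D3:**
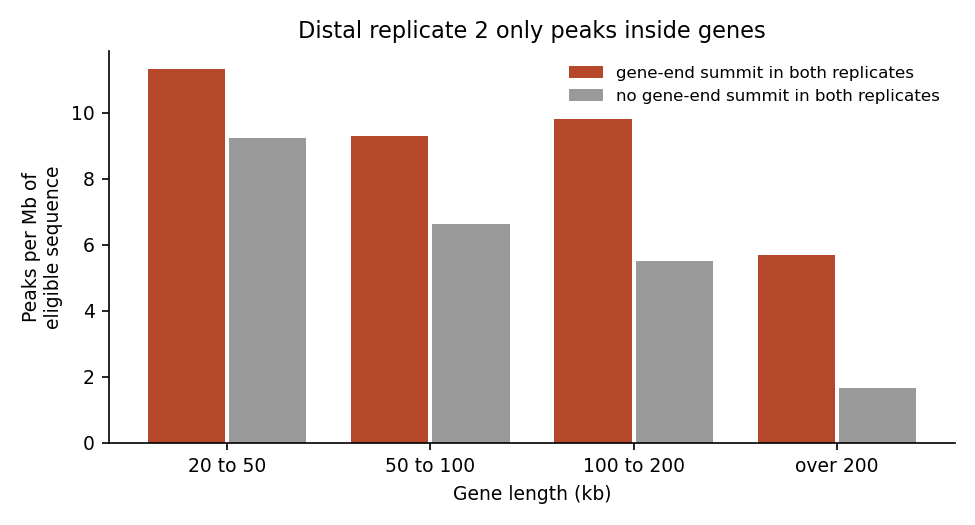
Distal peaks found only in replicate 2 inside protein-coding genes, per Mb of eligible sequence (y axis), by gene length (x axis, kb), for genes where each replicate has a summit no more than 1000 bp from an end (left bars) and for all other genes (right bars). The left bar is higher in each of the 4 classes, with 5.70 against 1.67 per Mb in the longest genes.

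The gene with the most replicate 2 only distal peaks was Gse1, with 14, beside 2 shared distal peaks. Ptpre, a receptor-type tyrosine phosphatase gene, held 13 beside 3 shared distal peaks, and Foxp1, a forkhead transcription factor gene of B cell development, held 13 beside 4. Pde4d, a phosphodiesterase gene that spans 1301793 bp, held 12 beside 6, and Cmip held 11 beside 2. Ripor2, Sgms1 and Etv6 held 10 each, with 4, 4 and 5 shared distal peaks. Fyb and Mbnl1, a splicing regulator gene, held 9 each, with 1 and 2 shared distal peaks. The Gse1 peaks had fold enrichments of 2.62 to 7.44, with the highest 17267 bp from a gene end, and the remaining 13 reached 4.78. In Ptpre, fold enrichments ran from 3.19 to 5.85, and 6 of the 13 summits lay between 135647806 and 135669506 on chromosome 7.

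Per 100 kb of gene length, and among genes that held at least 4, the highest was Itgb2, with 14.1 peaks per 100 kb. Itgb2 encodes the beta chain shared by several leukocyte integrins. Its 5 peaks, all inside the gene, had fold enrichments of 2.92, 3.72, 5.31, 3.99 and 4.25 in order of position, so one of them was above 5. Pstpip1 followed at 11.9 and Arhgef2, a gene of cytoskeletal signalling, at 10.6. Emilin2, Gng7, Ppp1r42, Irak2, Ptpre, Notch1 and Tmem104 lay between 8.40 and 10.1. Pstpip1, Arhgef2, Gng7 and Tmem104 held 6, 6, 6 and 5 of these peaks and 0 shared distal peaks.

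**Figure D4:**
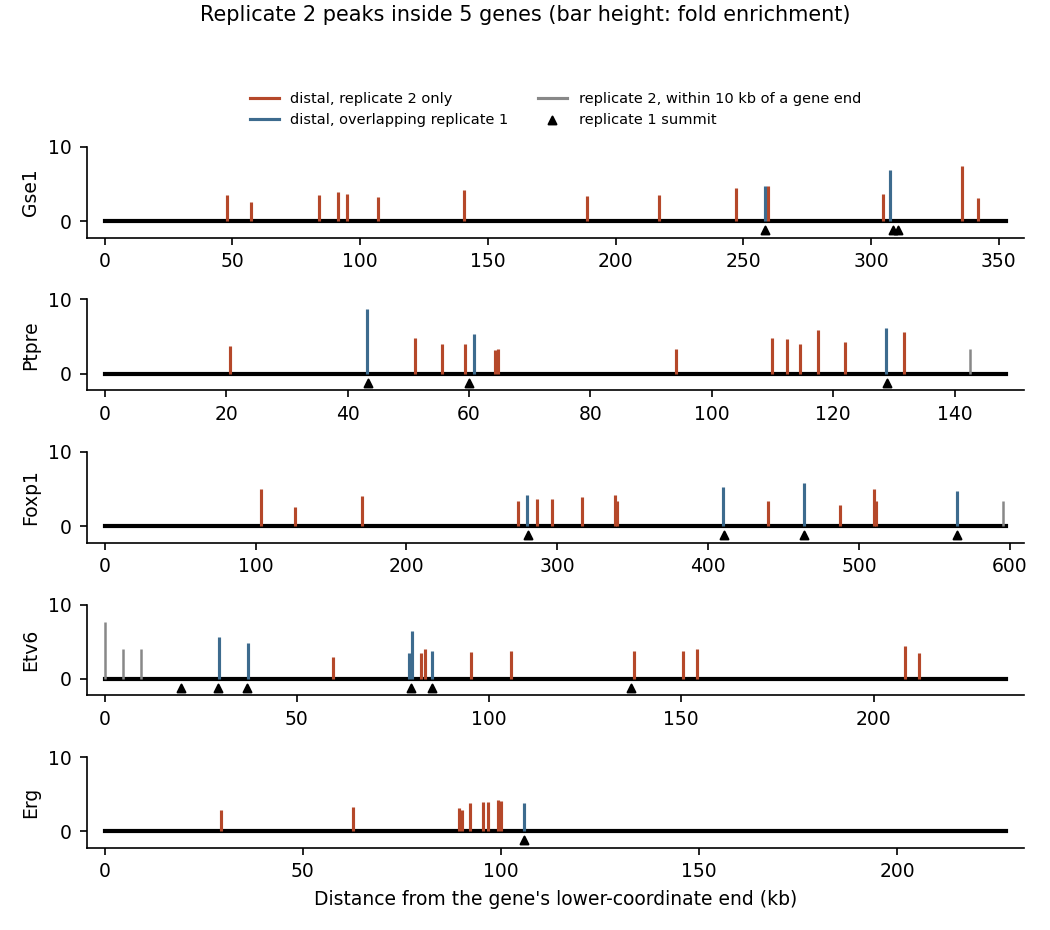
Replicate 2 peaks inside Gse1, Ptpre, Foxp1, Etv6 and Erg, drawn at their distance from the lower-coordinate end of the gene (x axis, kb), with bar height as fold enrichment (y axis, linear ratio) and triangles as replicate 1 summits. Distal peaks found only in replicate 2 are spread along Gse1 and Foxp1, while in Erg 7 of the 9 lie close to the single shared distal peak.

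Peaks also gathered into groups. Another replicate 2 only distal peak lay within 10000 bp of 2160 of them (35.1%), and a shared distal peak within 10000 bp of 1059 (17.2%). Within 50000 bp the shares were 64.7% and 39.5%. The 2 sets differ in density, at 3.20 replicate 2 only and 1.27 shared distal peaks per Mb of eligible sequence. The shares expected at these densities were not computed, so grouping was not tested. The densest group within 100 kb held 14 peaks over 84030 bp of chromosome 17 in a stretch without protein-coding genes, where the closest gene was Zfp36l2, which encodes a protein that marks messenger RNA for decay. Their fold enrichments ran from 2.83 to 6.64, and 1 shared distal peak lay among them. In all, 17 of these peaks had Zfp36l2 as their nearest gene, more than any other gene had. Groups of 12 lay inside Ptpre and near Tomm20, the gene of a mitochondrial import receptor, and groups of 11 inside Cmip and near Irf2bp2, a corepressor gene. The Tomm20 group spanned 97667 bp and held 3 shared distal peaks, while the Irf2bp2 group spanned 94621 bp, held none and had fold enrichments up to 7.28. Both lie on chromosome 8, with summits from 126661287 to 126755908 in the Irf2bp2 group and from 126803788 to 126901455 in the Tomm20 group. The 2 groups thus lie next to each other. As nearest gene, 15 peaks had Irf2bp2 and 13 had Tomm20.

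Replicate 1 peaks were nearby for many. The gap to the closest replicate 1 peak had a median of 24024.5 bp, and it was at most 1000 bp for 286 of the replicate 2 only distal peaks (4.65%) and at most 10000 bp for 24.8%. For replicate 2 only peaks near gene ends these shares were 9.51% and 45.5%. The closest gaps were 3 bp inside Lta4h, 4 bp inside Inpp5d and 11 bp inside Apbb1ip, with fold enrichments of 5.31, 4.92 and 3.19. On the other side of the rule, overlaps of 1, 4 and 5 bp made shared peaks of those near Tbc1d1, near Tmed10 and inside Fat3, with fold enrichments of 3.99, 2.84 and 3.49.

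Start sites were examined next, over the 5992 replicate 2 only distal peaks outside chromosome 18. Of these, 388 (6.48%) had a summit within 1000 bp of an annotated start, 161 at starts of protein-coding genes (2.69%) and 227 at starts of long noncoding RNA genes (3.79%). Among 2368 shared distal peaks the shares were 13.1%, 6.93% and 6.21%. The exact intervals of the all-start shares were 5.87% to 7.13% and 11.8% to 14.6%. These intervals treat peaks as independent, and a single library decided membership, so the difference was not tested. Median fold enrichment of the replicate 2 only distal peaks was 3.99 at starts and 3.97 elsewhere. For shared distal peaks it was 6.11 at starts and 4.89 elsewhere. Looked at from the starts, 12.5% of the 1419 protein-coding starts that lie over 10000 bp from the ends of all protein-coding genes had a replicate 2 only distal summit within 1000 bp, and 13.7% had a shared distal summit. For the 7591 long noncoding RNA starts at that distance from protein-coding gene ends the shares were 3.62% and 2.34%.

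After Nedd9, the strongest peaks at protein-coding starts were those of Asb8, of Fpgs, which encodes an enzyme of folate metabolism, and of Zbtb38, a zinc finger gene, each with a fold enrichment of 6.91. Psd4, Fgd3, Sbno2, Ptprs and Pde4dip followed with 6.64 each. The Fpgs summit was 1 bp and the Psd4 summit 10 bp from the start. At noncoding genes, the strongest after 2310015A10Rik and Rnu3b2 were at 4930412M03Rik, inside Rai1, with 7.71, at the pseudogene Gm6363, inside Hlcs, with 7.51, and at Gm20652, inside Arhgef2, with 7.44. Psenen-ps, Gm36301 and Gm29638 completed the 8, with 7.17, 7.17 and 6.91. The 5 microRNA genes within 1000 bp of a summit were Mir8096, Mir6516 next to the long noncoding RNA gene Snhg20, Mir6541, Mir6367 and Mir145a, with fold enrichments of 5.45, 6.11, 3.65, 5.31 and 3.72. Ends of long noncoding RNA genes were within 1000 bp of 6.34% of the replicate 2 only distal peaks and of 9.46% of shared distal peaks. Transfer RNA gene ends were within that distance of 16 (0.260%) and of 22 (0.901%).

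In 130 cases the 300 bp window around a start lay wholly inside a replicate 2 only distal peak. Their median GC content was 58.2%, against 61.7% in the 269 windows inside shared distal peaks and 53% in all 31396 windows. The median ratio of observed to expected CpG was 0.578, against 0.736 and 0.389. Motifs were searched on both strands as exact letters. The SP/KLF letters GGGCGG were in 43.8% of the 130 windows, in 56.9% of the shared distal windows and in 36.0% of all windows. The PU.1 letters GAGGAAG were in 16.9%, 17.8% and 13.4%, and the RUNX letters TGTGGT in 8.46%, 16.0% and 16.7%. The GATA letters AGATAA were in 7.69%, 5.20% and 11.2%, the ETS letters CCGGAAG in 6.92%, 13.4% and 9.0%, and the AP-1 letters TGANTCA in 8.46%, 8.92% and 7.84%. The TATA letters TATAAA were in 12.3%, 5.95% and 13.6%, and the CRE letters TGACGTCA in 1.54%, 3.72% and 1.83%. Matches to GAGGAAG and CCGGAAG on the same strand can share at most 1 base. Of the windows printed above, that of 2310015A10Rik holds 1 RUNX and 1 SP/KLF match, that of Nedd9 2 SP/KLF and 1 TATA match, that of Fyb 1 GATA match, and that of Hdac7 1 match each of PU.1, GATA and SP/KLF. A match describes letters and is no evidence of a bound factor.

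Nearby blood-cell genes were described with 11 lists of 359 matched genes. Of all 20661 autosomal protein-coding genes, 15.4% were the nearest gene of at least 1 replicate 2 only distal peak. Of the blood list genes, 144 (40.1%) were, against 19.3% of all genes when weighted to the same length classes. Inside the blood list genes lay 209 of the peaks, which is 10.7 per Mb of eligible sequence, against 4.80 per Mb for all protein-coding genes. Rates of all genes of the same length classes would place 92.6 peaks there, and rates that also take gene-end summits in both lists into account would place 94.5. Shared distal peaks were likewise denser there, at 4.73 per Mb against 1.76 per Mb. Blood list genes were the nearest genes of 401 replicate 2 only distal peaks (6.52% of these) and of 209 shared distal peaks (8.56% of those), while they are 1.74% of genes. Within 100000 bp or inside, a peak was found for 62.4% of blood list genes and 41% of all genes. The lists differ in size and share some members, and none was tested.

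The share of a list that was nearest to at least 1 peak was above that of genes of the same length classes in 10 of the 11 blood lists. Length classes do not match the space between a gene and its neighbours, in which peaks also count as nearest to it. The share was highest for transcription factor genes of myeloid cells, at 59.3% (16 of 27) against 13.5%. These genes had a median length of 9151 bp. Chromatin regulator and leukaemia genes reached 55.3% (26 of 47) against 32.0%, stem cell transcription factor genes 54.5% (18 of 33) against 23.5%, and stem cell surface and niche receptor genes 51.6% (16 of 31) against 21.9%. T and natural killer cell genes stood at 42.5% (17 of 40) against 20.8%, B cell genes at 40% (12 of 30) against 19.4%, and cytokine receptor and JAK-STAT genes at 38.9% (14 of 36) against 18.4%. Megakaryocyte and platelet genes stood at 33.3% (11 of 33) against 18.2%. Neutrophil and monocyte genes stood at 25% (10 of 40) against 10.9%, and mast cell, basophil and eosinophil genes at 25% (5 of 20) against 14.2%. Erythroid and haem genes were the exception, at 10.5% (4 of 38) against 14.8%, which rests on few genes. By peaks inside genes this list was near its length classes. Of its genes longer than 20000 bp, 18.8% held a peak against 19.3%. Inside its genes lay 5 peaks, where rates of all genes of the same length classes would place 5.97.

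**Figure D5:**
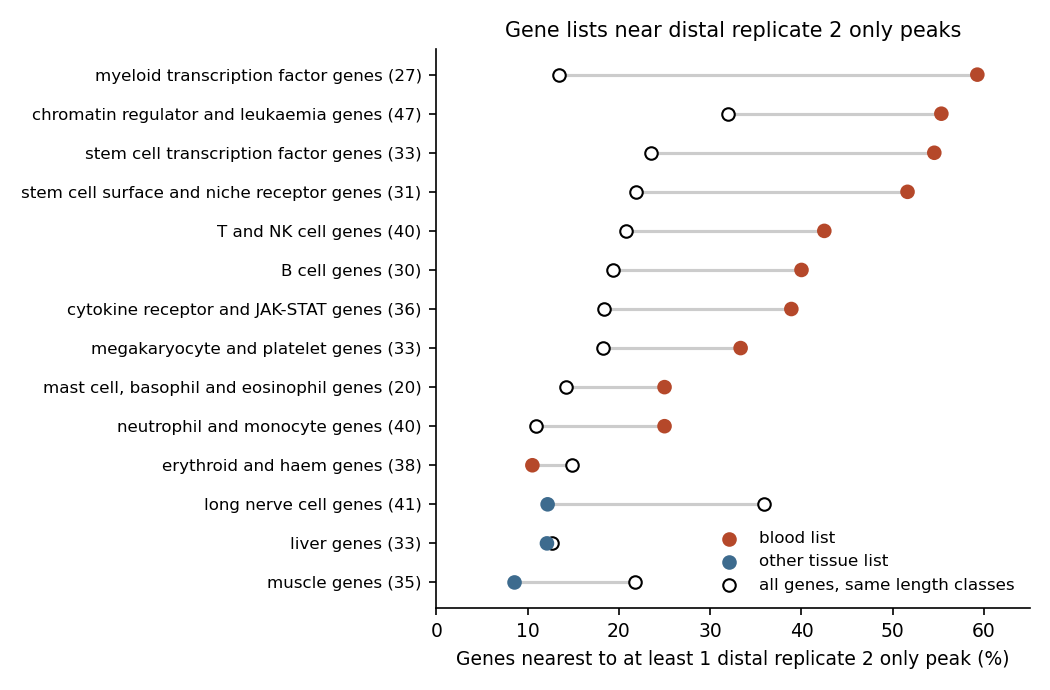
Share of each gene list that was the nearest gene of at least 1 distal peak found only in replicate 2 (filled points, x axis in percent; number of genes in brackets), beside the share of all autosomal protein-coding genes weighted to the same length classes (open points). Filled points lie to the right of the open ones in 10 of 11 blood lists and to the left in the erythroid, nerve cell and muscle lists, and the 2 points of the liver list, 12.1% and 12.7%, nearly coincide.

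Of the 3 lists of other tissues, the nerve cell and muscle lists lay below the share of their length classes, and the liver list was near it. Of 41 long nerve cell genes, 12.2% were nearest to a peak against 35.9% of all genes over 200000 bp. The median length of the 41 was 1098180 bp, and peaks per Mb were fewer in longer genes, so length was matched only coarsely. The 41 genes hold 45.8 Mb of eligible sequence and only 3 of the peaks, where the rate of all genes over 200000 bp would place 104. Nearest peaks numbered 2 for Cntnap2 and 1 each for Cdh12 and Nrg1. Muscle genes stood at 8.57% against 21.8%, with 2 peaks nearest to Myom1 and 1 each to Mef2a and Ryr1. Liver genes stood at 12.1% (4 of 33) against 12.7%, and 18.2% of the long ones held a peak against 17.8%. They held 3 peaks, or 8.20 per Mb of eligible sequence, where rates of all genes of the same length classes would place 2.85. Hnf4a was nearest to 4 peaks, Pck1 to 2 and Ass1 to 1.

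Among stem cell transcription factor genes, Etv6, an ETS-family repressor gene, and Erg, an ETS-family gene needed for stem cell maintenance, were each nearest to 11 replicate 2 only distal peaks, beside 5 and 1 shared distal peaks. Fold enrichments reached 4.52 at Etv6 and 4.25 at Erg, so every one of these 22 peaks was below 5. At Erg 7 of them lay between 95448020 and 95459351 on chromosome 16, inside the gene, and the last of these had its summit 172 bp from an annotated Erg start. Myb, a proto-oncogene of progenitor cells, was nearest to 5, with values of 3.32, 5.05, 5.32, 3.99 and 3.19 in order of position. The 5.32 peak lay inside the long noncoding RNA gene Gm33619, 99 bp from its start and 26059 bp from an end of Myb. Runx1, a master regulator of blood stem cell formation, was nearest to 5 with values up to 4.52, beside 9 shared distal peaks, so at Runx1 the shared peaks were the more numerous. Bcl11a and Nfia were nearest to 4 each.

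Among surface and niche receptor genes, Cxcr4, the receptor that holds stem cells in the marrow, was nearest to 8 peaks and 6 shared distal peaks. All 8 lay between genes at distances of 38643 to 283131 bp, with fold enrichments of 3.19 to 4.52. Cd44, an adhesion receptor gene, was nearest to 6, Notch1, a receptor gene of T cell fate, to 5, Itga6 to 5, and Ptprc, which encodes the CD45 phosphatase, to 4. The strongest was inside Notch1, with a fold enrichment of 7.97, 20094 bp from a gene end. Tgfbr2, a transforming growth factor receptor gene, was nearest to 3, of which the one 163207 bp away reached 5.85. In the cytokine list, Ifnar1 and Stat5b were nearest to 3 each, and Ifngr1, Il1rap and Jak2 to 2 each, with fold enrichments up to 5.31.

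Myeloid transcription factor genes are mostly short, so most of their peaks lay outside them. Cebpb, a factor gene of granulocyte and monocyte production, was nearest to 8 peaks, with values of 4.52, 3.99, 3.72, 3.72, 6.64, 4.25, 4.52 and 3.99 in order of position. They lay 13615 to 114602 bp from Cebpb, 7 between genes and 1 inside the noncoding gene Gm32287, and the strongest was 69860 bp away. Id2, an inhibitor of basic helix-loop-helix factors, was nearest to 7, Jun to 6 and Fos to 5. Jun and Fos encode the partners of the AP-1 factor. One of the Jun peaks reached 7.44 at 109133 bp from the gene, and the other 5 had values of 3.32 to 4.25. The noncoding gene Junos held 5 of the 6. Zeb2 was nearest to 4. Spi1, which encodes the myeloid and B cell factor PU.1, was nearest to 3, all inside the annotated gene, with values of 6.38, 3.72 and 2.99, and no shared distal peak. The strongest of them lay 58 bp from a replicate 1 peak.

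In the neutrophil and monocyte list Ly86, which encodes a partner of a Toll-like receptor homologue, was nearest to 13 peaks and 4 shared distal peaks. All 13 lay outside it, with fold enrichments of 2.79 to 5.58. Itgb2 was nearest to 5 and Lyn, a Src-family kinase gene, to 3. Fcgr2b, Tyrobp and Cx3cr1 were nearest to 1 each. In the megakaryocyte and platelet list Mef2c was nearest to 7, Thbs1 to 5, Rap1b and Prkcq to 4 each, and Dock8 and Vwf to 3 each. Thbs1, which encodes a platelet granule protein, had 11 shared distal peaks nearest to it, more than its replicate 2 only ones. Vwf, the gene of von Willebrand factor, had values of 6.64, 5.31 and 3.88, all inside the gene, and no shared distal peak. The closest replicate 1 peak to those 3 was 126440 bp away.

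In the erythroid list, Epb41, a membrane skeleton gene of red cells, was nearest to 3 peaks, and Tfrc, the transferrin receptor gene, and Ank1 to 1 each. Their highest fold enrichment was 3.99. The globin gene Hba-a1 and the red cell factor gene Klf1 were nearest to none. In the mast cell, basophil and eosinophil list Cd200r3 was nearest to 4, and Mitf, Cma1, Hdc and Il1rl1 to 1 each.

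Among lymphoid genes, Foxp1 was nearest to the 13 peaks it holds, Prkcb, a kinase gene of B cell receptor signalling, to 9, and Syk, another kinase gene of that pathway, to 7. Cd24a was nearest to 4 and Bach2, a repressor gene of B cells, to 3. In the T and natural killer cell list Ets1 and Nfatc2 were nearest to 5 each, Prkcq to 4, and Runx3, Satb1 and Skap1 to 2 each. Prkcb values reached 5.70 and Ets1 values 5.58, and no shared distal peak had Nfatc2 as its nearest gene. Among chromatin regulator and leukaemia genes, Cux1, Jarid2, which encodes a subunit of the Polycomb repressive complex, and Chd7, a chromatin remodeller gene, were nearest to 8 each. Aff1, a fusion partner in leukaemia, was nearest to 6, and Bcl6 and Hdac4 to 5 each. The strongest of these was near Cux1, with a fold enrichment of 6.64 at 55809 bp. Nynrin itself was the nearest gene of none of the peaks, and 1 of them lay within 100000 bp of it.

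Chromosomes differed in density. The replicate 2 only distal peaks numbered 5.23 per Mb of eligible sequence on chromosome 11 and 5.14 on chromosome 19, and 2.13 on chromosome 18 and 2.19 on chromosome 3. Shared distal peaks numbered 1.98 per Mb on chromosome 11 and 2.52 on chromosome 19, their highest values. The replicate 2 only distal peaks made up between 19.7% of replicate 2 peaks, on chromosome 11, and 28.9%, on chromosome 13.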

How the data were processed

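Flag ChIP libraries of replicates 1 and 2 were used, 1 peak list each. Fixation was with 1% formaldehyde (10 min) and amplification ran for 16 cycles, per the labels' protocols. Reads were handled with MACS2, Bowtie2, ChIPseeker, cutadapt, FastQC and Trimmomatic in an order not stated, on mm10, per the submitters' processing notes. For peak calling, the control and the cutoff are not given in the sources used here. Of the values deposited, the lowest −log10 q is 1.30 for replicate 2 and 1.31 for replicate 1. Fold enrichment was deposited as a ratio on a linear scale, and −log10 p and −log10 q were deposited as the caller wrote them. The score deposited in each list repeats the q value and was not used. The authors deposited no counts in these lists, so depth is unknown.

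From these, overlaps, distances and counts were computed with Python 3.11.15, pandas 2.3.3, numpy 2.4.6 and scipy 1.17.1, and figures were drawn with matplotlib 3.10.9. Gene bounds were those of GRCm38.p6, with 20661 autosomal protein-coding genes. The start table gave 32851 starts outside chromosome 18 and the strand of 16456 genes. Intervals are exact Clopper-Pearson 95% intervals and cover counting error only. Eligible sequence is that between the lowest and highest gene of a chromosome that lies past 10000 bp from the ends of all protein-coding genes, with assembly gaps not removed. The procedures were tested on simulated data.

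The members and gene lists were chosen with earlier results of these data known. The text names the 10 strongest peaks, the 10 genes holding most peaks, the 10 with most per 100 kb, up to 6 genes per blood list and 3 per other list by number of peaks nearest, the 8 strongest at noncoding gene ends, microRNA genes within 1000 bp, peaks next to the thresholds and the 5 densest groups. The peaks at protein-coding starts, the Rn18s-rs5 peak, Nynrin, Hba-a1 and Klf1 were named after their values were seen. Some genes that the rule selects are left out of the text. Alternatives changed the q and fold cutoffs, the overlap rule, the distance threshold, the genes and chromosomes used, and the use of replicate 1.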

Additional observations from a re-analysis of the deposited data

Results flagged for a closer look

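Chromosome X lies outside the rule and no comparison above uses it, so its peaks are given apart as a description. Of the 242 replicate 2 peaks there, 29 had no overlap with replicate 1 and met the distance threshold of 10000 bp. Of the 29, 14 (48.3%) lay inside protein-coding genes. Their median fold enrichment was 3.99 and the highest 6.11.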

How the results depend on the processing

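The number of replicate 2 only distal peaks was 6148. It was 2825 where both lists were cut at a −log10 q of 5, 1947 with that cutoff in replicate 2 alone, 891 with a fold enrichment of at least 5, 1669 with a distance of 50000 bp and 4052 with the ends of all annotated genes. The share inside protein-coding genes, 54.9%, became 53.5% with the q cutoff in both lists, 50.6% at 50000 bp and 65% with all gene ends. The share between genes, 33.6%, became 31.5% with all gene ends and 35.0% without peaks at starts or noncoding ends, an alternative chosen after seeing the data. The median distance, 27671.5 bp, became 26798 bp with the q cutoff in replicate 2 alone, 25248 bp with the fold cutoff, 19473 bp at 5000 bp and 84819 bp at 50000 bp. The share of blood list genes nearest to a peak, 40.1%, became 27.9% and 21.2% with the q cutoff in both lists and in replicate 2 alone, 13.4% with the fold cutoff, 47.9% at 5000 bp, 17.0% at 50000 bp and 32.3% with all gene ends. The share of all genes, 15.4%, became 8.90%, 6.80%, 3.66%, 20.7%, 4.10% and 11.3% in the same order, 16.6% when 50% of the peak had to be covered, 14.8% with chromosome X and 14.3% without peaks at starts or noncoding ends. Without replicate 1, which leaves all 8589 distal replicate 2 peaks, the 2 shares were 46.0% and 18.1%. The ratio of the blood to the all-gene share was 2.61 and ranged from 2.32 to 4.14 over all settings run. Leaving out peaks with a replicate 1 peak within 1000 bp left 5862 peaks and moved none of the shares or the median distance beyond its 95% interval. Fewer or more peaks enter by construction, and other causes were not tested. No paired analysis was possible because no result comes from a test. Without counts, low depth and absence in replicate 1 cannot be told apart.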
